A study of Homo sapiens with 4 samples.

Results

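Epithelial to mesenchymal transition (EMT) is directed by a small group of DNA-binding proteins, and 10 of them are described here in OVCA420 cells: *SNAI1*, *SNAI2*, *SOX4*, *SOX9*, *ZEB1*, *ZEB2*, *TWIST1*, *PRRX1*, *HMGA2* and *HMGA1*. They were taken by symbol from the 33694 genes listed in the count tables. OVCA420 is an established epithelial ovarian cancer cell line. Cells were left untreated (Ctrl) or received TGF-β1, a cytokine that induces EMT, at 10 ng/mL for 1 day, 3 days or 7 days, and 1 droplet-based 3′ scRNA-seq library was made per time point (4 libraries in all). The labels name no genetic change in any group, and the treated groups differed from Ctrl by the cytokine and its duration. With 1 library per time point, no test between time points was possible, and the time point and the library cannot be told apart.

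Only the cells that come first in each barcode list were analysed. They were 27.9% of the listed cells in Ctrl and 36.3%, 31.6% and 23.0% at 1-day, 3-day and 7-day. Of these, 933 cells were retained in Ctrl and 937, 705 and 569 in the treated libraries. All values of a library, counts of 0 included, refer to its retained cells. Values given 4 at a time run from Ctrl to 7-day. Between 25382817 and 32949874 unique molecular identifiers (UMIs, each standing for 1 captured mRNA molecule) were summed per library. The median per cell was 30270 UMIs in Ctrl and 43553 UMIs at 3-day, so shares of cells and correlations across cells were taken after each cell had been thinned at random to 18000 UMIs. The keratin genes *KRT7*, *KRT8* and *KRT18* and the epithelial adhesion gene *EPCAM* were abundant in every library (at least 7532 UMIs each), in contrast to the Müllerian marker *PAX8* (4 to 10 UMIs per library) and the ovarian carcinoma markers *WFDC2* (1 to 3 UMIs) and *MSLN* (4 to 8 UMIs). The CA125 gene *MUC16* had 89 UMIs in Ctrl and 14, 4 and 5 UMIs at 1-day, 3-day and 7-day, respectively. Summed levels of 5 fibroblast markers (0.709 to 1.57 CPM, the UMIs of a gene per 1000000 UMIs of its library) and 4 immune markers (0.0788 to 0.733 CPM) were close to 0, and 3 endothelial markers summed to 5.40 CPM in Ctrl, nearly all of it *CDH5*, and to 0.311 to 0.473 CPM after treatment. The part of other cell types in the levels described here was not tested. Retained cells of different libraries shared 23 barcodes, with 1 to 7 shared by any pair of libraries.

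The zinc finger proteins SNAI1 and SNAI2 bind E-box motifs and repress epithelial genes such as *CDH1*, and ZEB1 and ZEB2 act on the same kind of site. TWIST1 is a basic helix-loop-helix factor, PRRX1 is a homeodomain factor, and SOX4 and SOX9 carry the HMG box shared by the SOX family, with *SOX4* being a known TGF-β target in epithelial cells. HMGA1 and HMGA2 are architectural proteins that bend AT-rich DNA and open chromatin to other factors, and *HMGA2* is a fetal gene held down by let-7 microRNAs in most adult tissues.

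The cells used few of these factors. In Ctrl, *HMGA1* alone accounted for 90.9% of the UMIs of the 10 factors and *SOX4* for 6.90%. At 1-day these shares were 59.7% and 33.5%, and at 7-day they were 73.0% and 20.2%. Because 3′ counting gives 1 tag per molecule whatever the transcript length, the levels of different factors were set side by side, apart from differences in capture. The order in Ctrl was *HMGA1* (1290 CPM), *SOX4* (98.0 CPM), *SOX9* (19.2 CPM), *HMGA2* (8.13 CPM) and *SNAI2* (3.80 CPM). At 7-day the order was *HMGA1* (2048 CPM), *SOX4* (566 CPM), *HMGA2* (114 CPM), *SNAI2* (39.1 CPM) and *SOX9* (33.6 CPM). The counting intervals of neighbours in these orders did not overlap. *SNAI1*, *ZEB1*, *ZEB2* and *TWIST1* stayed below 2 CPM in every library, and *PRRX1* had no UMI in the retained cells of any library.

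**Figure D1:**
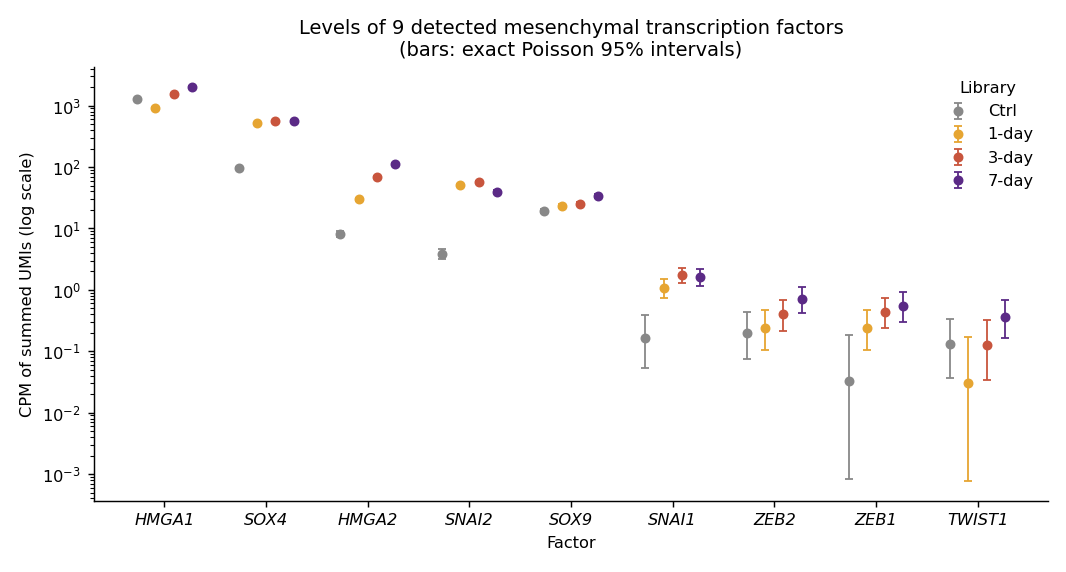
Level of each detected factor in each library, in CPM of summed UMIs on a log scale. Bars are exact Poisson 95% intervals (counting error only). *HMGA1* and *SOX4* lie above all others in the 4 libraries, *HMGA2* goes from 8.13 CPM in Ctrl to 114 CPM at 7-day, and *SNAI1*, *ZEB1*, *ZEB2* and *TWIST1* lie below 2 CPM.

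Each time point was then set against Ctrl, which the 3 comparisons share. A factor was called higher or lower when its level differed at least 2-fold and the exact 95% interval of the log2 ratio, which covers counting error only, left out 0. At 1-day, 4 of the 7 factors with at least 10 UMIs over both libraries were called higher, beside 10.5% of the 16025 genes that could be called. At 3-day, 5 of 8 were called higher (11.4% of 15958 genes), and at 7-day 6 of 9 (13.7% of 15924 genes). The callable factors differed between time points. *SNAI1*, *ZEB1*, *ZEB2* and *TWIST1*, with 5, 1, 6 and 4 UMIs in Ctrl, could be called only through their treated counts. Of these, *SNAI1* was called higher at each time point, *ZEB1* at 3-day and 7-day, and *ZEB2* at 7-day. Their calls and ratios are part of the counts and medians given here. None was called lower at any time point. The median log2 ratio of the callable factors was 1.87 at 1-day, 2.81 at 3-day and 2.53 at 7-day, and over all callable genes it was -0.09, -0.04 and 0.06. These counts and medians are thus not over the same factors at each time point.

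Of the SNAIL family, *SNAI2* (chr8:48917598-48921740, minus strand, GRCh38 here and for the other factors) made up nearly all transcripts. It had 114 UMIs in Ctrl and 1671, 1847 and 992 UMIs in the treated libraries. Its level was highest at 3-day (57.5 CPM, 95% interval 54.9 to 60.1), and the 7-day level lay below the 3-day level by a log2 ratio of -0.56 (-0.67 to -0.44) while exceeding Ctrl by 3.36 (3.08 to 3.65). *SNAI1* (chr20:49982980-49988886), its paralog and an early TGF-β target in many epithelia, had 5, 35, 56 and 41 UMIs, or 0.167, 1.06, 1.74 and 1.62 CPM. The log2 ratio of *SNAI1* to Ctrl was 2.67 (1.31 to 4.38) at 1-day, 3.39 (2.08 to 5.06) at 3-day and 3.28 (1.94 to 4.97) at 7-day. Both SNAIL genes were thus higher in all treated libraries, and the *SNAI1* level was 0.0439 times that of *SNAI2* in Ctrl and 0.0209, 0.0303 and 0.0413 times in the treated libraries.

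Among the SOX factors, *SOX4* (chr6:21593751-21598619) stood at nearly the same level in the 3-day and 7-day libraries. Its UMIs were 2941 in Ctrl and 17080, 18157 and 14355 in the treated libraries, and the 7-day level differed from the 3-day level by a log2 ratio of 0.00 (-0.03 to 0.03). The log2 ratio to Ctrl at 1-day was 2.40 (2.35 to 2.46). *SOX9* (chr17:72121020-72126416), a factor of progenitor cells in several epithelia, had 576, 756, 816 and 852 UMIs, or 19.2, 22.9, 25.4 and 33.6 CPM. It was higher at each later time point, with log2 ratios to Ctrl of 0.26 (0.10 to 0.42), 0.40 (0.25 to 0.56) and 0.81 (0.65 to 0.96), none of which reached 2-fold.

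*HMGA2* (chr12:65824460-65966291) was also higher at each later time point, over a wider range. It had 244, 979, 2222 and 2894 UMIs, or 8.13, 29.7, 69.1 and 114 CPM. The log2 ratio to Ctrl was 1.87 (1.67 to 2.08) at 1-day, 3.09 (2.90 to 3.28) at 3-day and 3.81 (3.62 to 4.0) at 7-day. Against 1-day, the 3-day level was 2.33-fold higher and passed the threshold for a call (6.09% of 15953 genes were called higher in that comparison). The 7-day level was 1.65-fold that of 3-day and did not pass it (4.27% of 15609 genes were called higher). *HMGA2* had 2.14 times the *SNAI2* level in Ctrl already, and 0.586, 1.20 and 2.92 times in the treated libraries.

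*HMGA1* (chr6:34236873-34246231) went the opposite way at 1-day. It had 38706, 30431, 50700 and 51973 UMIs, or 1290, 924, 1577 and 2048 CPM. Its log2 ratio to Ctrl was -0.48 (-0.50 to -0.46) at 1-day, 0.29 (0.27 to 0.31) at 3-day and 0.67 (0.65 to 0.69) at 7-day, all below 2-fold. The 1-day library was the lowest and the 7-day library the highest, with no overlap of counting intervals. Reads that match a processed copy of this gene equally well may be lost or split, and the copy *HMGA1P4* had 52 to 127 UMIs per library.

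The remaining factors were near the limit of detection. *ZEB1* (chr10:31318495-31529814) had 1, 8, 14 and 14 UMIs and *ZEB2* (chr2:144364364-144521057, minus strand) had 6, 8, 13 and 18 UMIs. *ZEB1* was called higher at 3-day (log2 ratio 3.71, 0.99 to 9.11) and 7-day (4.05, 1.33 to 9.45), on intervals that are wide because Ctrl had 1 UMI. *ZEB2* was called at 7-day (1.83, 0.43 to 3.45) and not at 3-day (1.02, -0.48 to 2.70). *ZEB1-AS1*, which overlaps *ZEB1* on the other strand, had 221 UMIs over the 4 libraries. *TWIST1* (chr7:19020991-19117636, minus strand) had 4, 1, 4 and 9 UMIs, and its 7-day ratio to Ctrl was not called (1.41, -0.43 to 3.56). *PRRX1* (chr1:170662728-170739421) had 0 UMIs. With 3 counts as the floor for a count of 0, the floor stood at 0.10 CPM (Ctrl) and 0.118 CPM (7-day), below the exact Poisson upper limits of 0.123 and 0.145 CPM. The same floor gives a share of 0.322% of Ctrl cells and 0.527% of 7-day cells with a UMI (counting error only). The exact binomial upper limits of that share were larger, at 0.395% and 0.646%. At least 1 UMI of *SNAI1*, *ZEB1*, *ZEB2*, *TWIST1* or *PRRX1* was seen in 0.829% of thinned Ctrl cells and in 2.33%, 3.99% and 5.83% of thinned cells at 1-day, 3-day and 7-day. No cell type that lacks these genes was present, so the part of such low shares that comes from RNA free in the droplets was not tested.

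The promoters of *SOX4* and *HMGA1* are shown because these were the most abundant factors and, of the pairs among the 5 abundant factors, the one with the lowest correlation across cells in every library. RefSeq promoter sequences for GRCh38.p14 matched 5 of the 10 factors (*PRRX1*, *ZEB2*, *SOX4*, *HMGA1* and *ZEB1*). The 250 bases before the transcript start are printed 5′ to 3′ in lower case, from chr6:21593501-21593750 for *SOX4* and from chr6:34236623-34236872 for the first of 2 *HMGA1* starts, both on the plus strand. Capitals mark matches, on either strand, to 7 motifs: CAGGTG (the E-box of the SNAIL and ZEB proteins), CAGAC (SMAD), GGAATG (TEAD), TGANTCA (AP-1), GGGCGG (GC box), CCAAT and TATAAA.
SOX4: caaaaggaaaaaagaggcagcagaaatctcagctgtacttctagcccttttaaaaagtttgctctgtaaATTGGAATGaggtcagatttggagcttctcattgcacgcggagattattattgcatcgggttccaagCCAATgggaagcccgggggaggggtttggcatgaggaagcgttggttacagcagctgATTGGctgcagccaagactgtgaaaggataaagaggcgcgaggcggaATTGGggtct
HMGA1: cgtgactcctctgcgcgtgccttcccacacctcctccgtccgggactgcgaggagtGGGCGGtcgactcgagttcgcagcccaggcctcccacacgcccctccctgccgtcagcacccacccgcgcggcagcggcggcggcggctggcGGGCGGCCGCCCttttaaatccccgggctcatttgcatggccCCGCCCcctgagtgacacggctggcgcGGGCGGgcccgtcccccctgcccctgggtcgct
The *SOX4* window held 4 matches to CCAAT and 1 to GGAATG, and the CCAAT match farthest from the start overlaps the GGAATG match. Of all 35116 promoter windows of this length, 0.874% held 4 or more CCAAT matches, 32.0% held at least 1, and 11.9% held GGAATG. The *HMGA1* window held 5 matches to GGGCGG, 2 of them next to each other on opposite strands, and 4.15% of all windows held 5 or more. Its GC content was 74.8%, against 48.8% for *SOX4* and a median of 58.0% over all windows. CAGGTG was in neither printed window and in 17.5% of all windows, and it was found before the second *HMGA1* start and before 2 of the 7 *ZEB1* starts. These matches describe letters in the reference sequence and were not tied to the expression values.

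The question of which cells used each factor was then asked within libraries. After thinning, *SNAI2* was detected in 5.09% of Ctrl cells (exact binomial 95% interval 3.71 to 6.80) and in 51.3%, 62.9% and 46.4% of cells at 1-day, 3-day and 7-day. Before thinning these shares were 9.11%, 64.6%, 83.7% and 72.4%. *HMGA2* was detected in 10.5% of thinned Ctrl cells and in 33.1%, 63.7% and 79.1% of treated cells, and *SOX9* in 27.6%, 28.7%, 34.1% and 44.6%. *SOX4* was already present in 66.7% of thinned Ctrl cells and reached 97.8%, 98.1% and 97.8%, with medians of 1, 8, 9 and 8 UMIs per cell. *HMGA1* was found in all thinned cells but 1 of the 1-day library. The variance of *SOX4* per thinned cell was 2.90 times its mean in Ctrl and 5.19, 5.72 and 7.23 times in the treated libraries, where counting alone gives about 1, so Poisson intervals understate the spread between cells. *HMGA1* behaved alike, with ratios of 2.56 in Ctrl and 6.35, 8.07 and 6.29 after treatment.

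**Figure D2:**
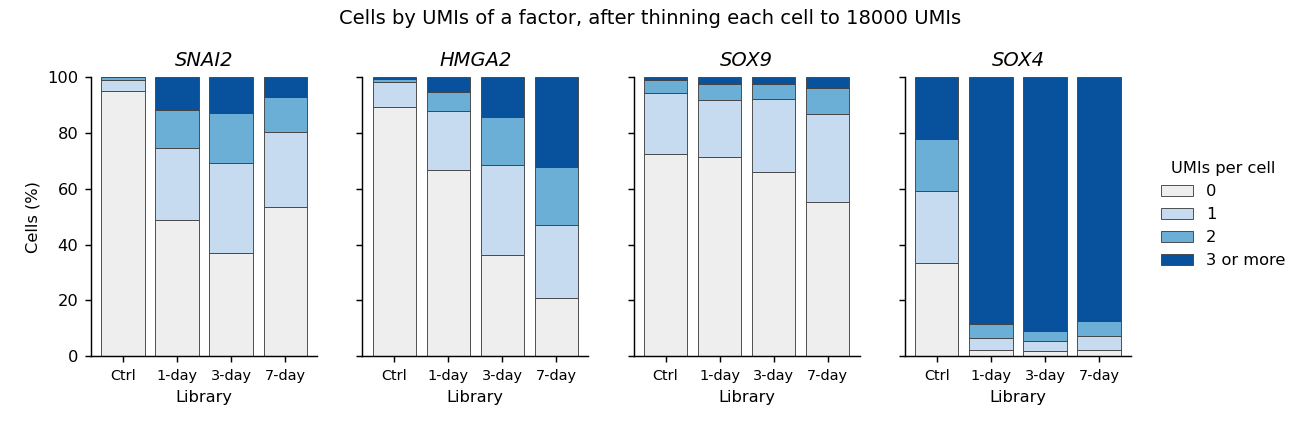
Share of thinned cells (18000 UMIs each) with 0, 1, 2 or at least 3 UMIs of *SNAI2*, *HMGA2*, *SOX9* and *SOX4* in each library. *SOX4* is found in over 97% of cells of each treated library, *HMGA2* reaches 79.1% at 7-day, and *SNAI2* is most widespread at 3-day (62.9%).

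Cells were next divided by *MKI67* and *TOP2A*, genes of proliferating cells, because 10 cycling genes summed to 1511 CPM in Ctrl and to 521, 1192 and 1274 CPM in the treated libraries. At 1-day 9 of these 10 genes were called lower (11.8% over all callable genes), among them *TOP2A* (695 CPM in Ctrl and 223 CPM at 1-day), *MCM2* (38.3 and 6.59 CPM), *TYMS* (51.8 and 16.8 CPM) and *RRM2* (151 and 32.0 CPM), and none was called at 3-day or 7-day. Thinned cells with no UMI of either gene made up 9.72% of Ctrl cells and 59.2%, 34.1% and 22.4% of treated cells. In these cells, *SOX4* was at 162, 554, 755 and 889 CPM. In cells with *MKI67* or *TOP2A* it was at 91.3, 468, 475 and 474 CPM. The level of *SOX4* over all cells was thus 565 CPM at 3-day and 566 CPM at 7-day, while in cells without these UMIs the 7-day level was above the 3-day level and in the other cells the 3 treated levels were close together.

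*SNAI2*, *HMGA2* and *SOX9* were likewise higher in cells without *MKI67* and *TOP2A* in each of the 4 libraries. For *HMGA2* the levels were 13.3, 32.7, 85.0 and 145 CPM without and 7.31, 25.8, 61.8 and 105 CPM with these UMIs. *SOX9* was at 25.9, 27.3, 35.1 and 46.5 CPM without them and at 18.4, 16.3, 20.8 and 29.7 CPM with them. *SNAI2* was at 7.03, 52.4, 73.8 and 50.1 CPM without and at 3.45, 47.9, 50.2 and 35.9 CPM with them, and its counting intervals overlapped in Ctrl and at 1-day. *HMGA1* had the opposite order in each library, with 1177, 855, 1269 and 1636 CPM without and 1306, 1027, 1728 and 2165 CPM with them. Within cells lacking these UMIs, the 1-day log2 ratio to Ctrl was 2.90 (2.25 to 3.64) for *SNAI2*, 1.77 (1.63 to 1.91) for *SOX4* and 1.29 (0.81 to 1.82) for *HMGA2*, each smaller than over all cells and each still called. They were the 3 called of 6 callable factors, beside 1195 of 13983 genes called higher. *SNAI1*, called over all cells at 1-day, was not called in these cells (24 UMIs at 1-day and 0 in Ctrl). At 7-day 3 of 5 callable factors were called in these cells (*SNAI2*, *SOX4* and *HMGA2*), against 6 of 9 over all cells, since only 82 Ctrl and 123 7-day cells remained and *SNAI1*, *ZEB1* and *ZEB2* had too few UMIs. Of all callable genes, 1773 of 12434 were called higher in these cells at 7-day.

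**Figure D3:**
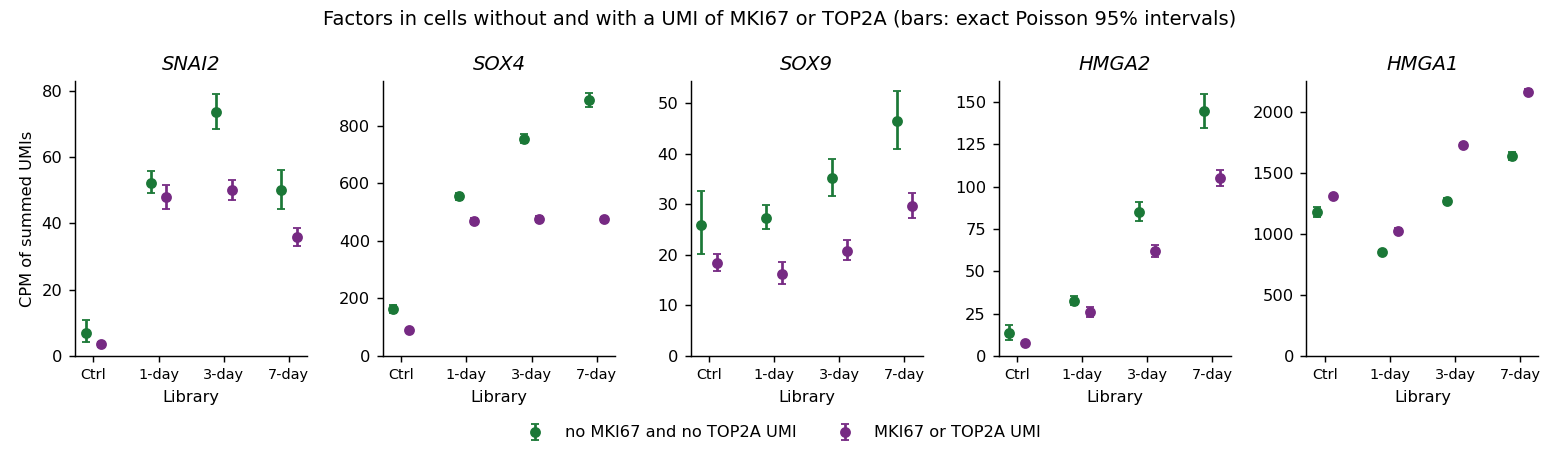
CPM of 5 factors in cells with no UMI of *MKI67* and *TOP2A* and in cells with at least 1, by library. Bars are exact Poisson 95% intervals (counting error only). *SOX4*, *HMGA2*, *SOX9* and *SNAI2* are higher in cells without these UMIs and *HMGA1* is lower, with *SOX4* reaching 889 CPM in the former at 7-day.

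Co-expression was examined across the thinned cells of each library (844, 900, 677 and 549 cells), so that differences between library means play no part. *SNAI2* and *SOX4* were weakly and positively correlated, with Pearson r of 0.106 in Ctrl and 0.043, 0.124 and 0.206 in the treated libraries. The cells of a library share its depth and preparation and are not replicates, so these values are descriptions. An r of at least 0.1 with *SNAI2* was reached by 4.04%, 4.47%, 3.74% and 5.39% of 7965 genes in the 4 libraries, and by mean r over libraries *SOX4* ranked 102 among them. With *SOX4* as the reference, 2.46%, 2.27%, 5.81% and 13.8% of 7964 genes reached 0.1, so such values were most common at 7-day. At 7-day, cells with 0, 1 and at least 2 *SNAI2* UMIs held on average 9.19, 9.82 and 13.3 *SOX4* UMIs. At 1-day the corresponding means were 9.44, 9.67 and 9.81, so that *SOX4* hardly differed with *SNAI2* in that library.

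Both factors were negatively correlated with the cycling genes in each library, and the part of these genes in the 7-day value of 0.206 was not tested. The r with the summed cycling list was -0.164, -0.236, -0.383 and -0.450 for *SOX4*. For *SNAI2* it was -0.0516, -0.0803, -0.165 and -0.253. With depth, mitochondrial share and the cycling list held fixed, the partial r of *SNAI2* and *SOX4* was 0.0962, 0.0253, 0.0704 and 0.113 in the 4 libraries. Among cells with no *MKI67* and *TOP2A* UMI the Pearson r of the pair was 0.0213, 0.0227, 0.108 and 0.0272. In those cells, which numbered 82, 533, 231 and 123, r was above 0.1 only at 3-day. The partial r over all thinned cells was above 0.1 only at 7-day. Differences between libraries in these values were not tested, and the values set no library apart.

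*HMGA2* followed *SNAI2* more evenly than *SOX4* did. Their r was 0.144, 0.130, 0.194 and 0.105, which ranked *HMGA2* 49 of 7965 genes by mean r with *SNAI2*. The partial r was 0.139, 0.126, 0.18 and 0.0691. At 1-day *HMGA2* averaged 0.409 UMIs in cells without and 0.738 UMIs in cells with at least 2 *SNAI2* UMIs, and at 3-day 0.908 and 1.5 UMIs. Both genes were found in 11 Ctrl cells, where 4.53 are given by the product of their shares, and in 180 1-day cells (153 by the product) and 291 3-day cells (271 by the product). At 7-day the count of 203 was close to the product of 202.

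**Figure D4:**
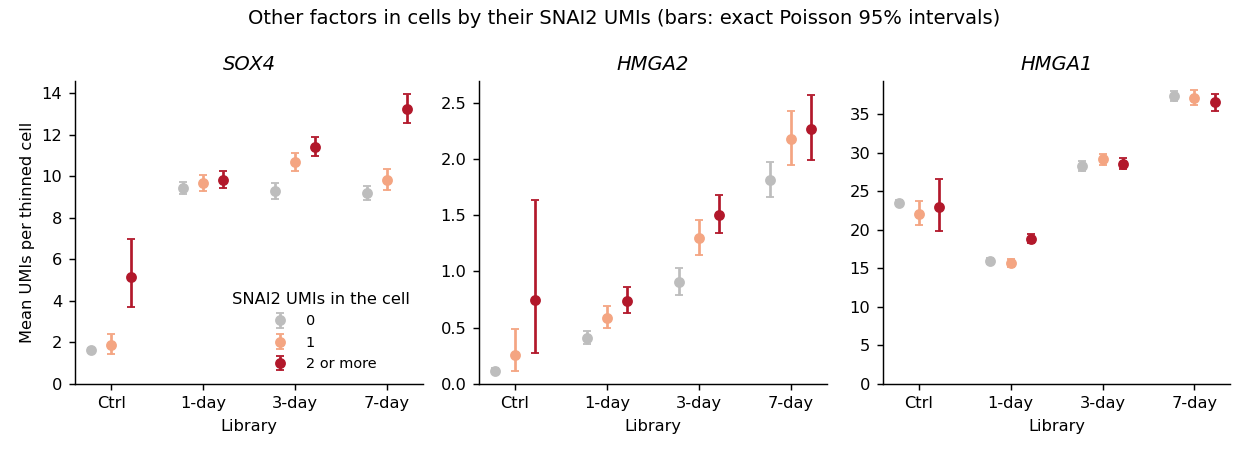
Mean UMIs of *SOX4*, *HMGA2* and *HMGA1* per thinned cell, for cells with 0, 1 or at least 2 *SNAI2* UMIs in each library. Bars are exact Poisson 95% intervals (counting error only), which understate the spread between cells. *HMGA2* is higher in cells with more *SNAI2* in the 4 libraries, and the *SOX4* means of the lowest and highest class are 9.19 and 13.3 UMIs at 7-day and 1.65 and 5.13 UMIs in Ctrl, where the highest class has 8 cells.

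*SOX4* was accompanied by *SOX9* in the later libraries. The r of the pair was 0.0366 and 0.0995 in Ctrl and at 1-day and 0.221 and 0.175 at 3-day and 7-day, and *SOX9* ranked 107 of 7964 genes by mean r with *SOX4*. An r of at least 0.1 with *SOX4* was reached by 2.46%, 2.27%, 5.81% and 13.8% of these genes, so that values near 0.1 were less unusual at 7-day. At 3-day the 170 cells with fewest *SOX4* UMIs averaged 0.30 *SOX9* UMIs and the 169 cells with most averaged 0.734. *HMGA2* was correlated with *SOX4* at 3-day (0.158) and 7-day (0.151) and not in Ctrl (-0.0115) or at 1-day (-0.00448), and the partial r, 0.0972 at 3-day and 0.0741 at 7-day, was below 0.1 there too. The partial r of *SOX4* and *SOX9* was 0.0259, 0.0698, 0.183 and 0.115. *SNAI2* and *SOX9* had an r of 0.00584 to 0.0759. *SNAI1* was detected in 1 to 21 thinned cells per library, too few to describe its partners.

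*HMGA1* ran against *SOX4*. The r of these factors was -0.101, -0.0869, -0.160 and -0.258, and *HMGA1* ranked 7792 of 7964 genes by mean r with *SOX4*. At 7-day the 138 cells with fewest *SOX4* UMIs averaged 40.8 *HMGA1* UMIs and the 137 cells with most averaged 31.6. *HMGA1* had an r of 0.125, 0.174, 0.356 and 0.352 with the cycling list, and the partial r of *HMGA1* and *SOX4* was -0.0802, -0.0474, -0.0274 and -0.116. *HMGA1* was negatively correlated with *SOX9* as well, with an r of -0.0294, -0.0785, -0.0989 and -0.206. The partial r of *HMGA1* and *SOX9* was -0.029, -0.0588, -0.0563 and -0.162. In each treated library it was lower than that of *HMGA1* and *SOX4*. *HMGA1* and *HMGA2*, which share their DNA-binding AT-hooks, had an r of 0.141 at 1-day and of -0.055 to -0.015 in the other libraries.

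**Figure D5:**
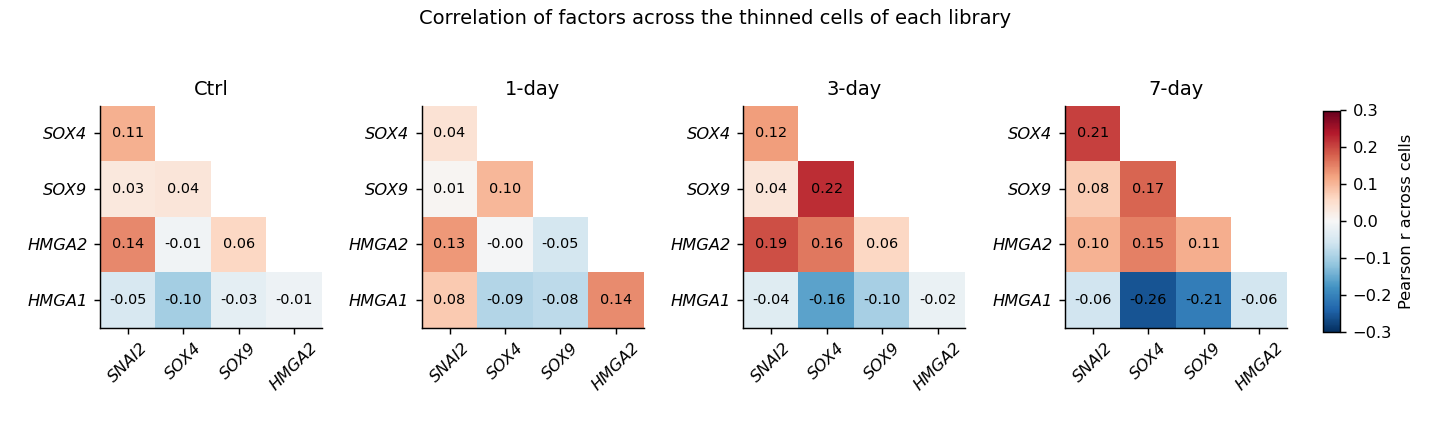
Pearson r of each pair of 5 factors across the thinned cells of each library, on log-normalized values, with the color scale running from -0.3 to 0.3. *SNAI2* is positively correlated with *SOX4* and *HMGA2* in the 4 libraries, and *SOX4* is negatively correlated with *HMGA1*, most so at 7-day (-0.258).

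Among the genes most like *SNAI2* across cells were the basal keratin *KRT17* (mean r over the 4 libraries 0.207), the caveolar gene *CAV1* (0.206), *PMEPA1* (0.196), a TGF-β target that limits SMAD signaling, and the growth factor receptor *EGFR* (0.195). The r with *SNAI2* differed between libraries, from 0.0955 (3-day) to 0.286 (Ctrl) for *EGFR* and from 0.126 (7-day) to 0.363 (1-day) for *CAV1*. *KRT17* had its highest r in Ctrl (0.253), where 43 of 844 thinned cells had a *SNAI2* UMI. The genes least like *SNAI2* were *ASRGL1* (-0.217), *HSPE1* (-0.165) and *SNRPF* (-0.153). For *SOX4* the most alike included the ligand *BMP2* (0.281), the collagen receptor subunit *ITGA2* (0.259), *TPT1* (0.247) and the receptor phosphatase *PTPRK* (0.241), each with its highest r at 7-day. The least alike were *TUBA1B* (-0.309), *RANBP1* (-0.309) and *RAN* (-0.301).

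Combinations of factors in single cells were counted for *SNAI2*, *SOX4*, *SOX9* and *HMGA2*. None of the 4 was detected in 20.7% of thinned Ctrl cells and in 0.667%, 0.295% and 0.364% of treated cells. All 4 were detected in 0.237% of Ctrl cells (exact binomial 95% interval 0.0287 to 0.853) and in 5.33% (3.96 to 7.01), 14.5% (11.9 to 17.4) and 17.9% (14.7 to 21.3) at 1-day, 3-day and 7-day, and the product of the 4 separate shares (0.0989%, 4.76%, 13.4% and 16.0%) lay within the interval in each library. *SNAI2*, *SOX4* and *HMGA2* were found together in 0.711%, 19.6%, 42.2% and 36.6% of cells. The product of their separate shares was 0.358%, 16.6%, 39.3% and 35.9%. It lay below the exact binomial 95% interval at 1-day (17.0 to 22.3) and within the interval in the other libraries. *SOX4* was found in 97.8%, 98.1% and 97.8% of treated cells. The trio there thus largely repeats the pair of *SNAI2* and *HMGA2* and says little about *SOX4*. Cells of 1 library are not replicates, so these counts, products and intervals are descriptions.

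Other genes of the same programs were read beside the factors. Of 20 other EMT transcription factors and paralogs, 5 of 9 callable genes were called higher at 1-day, 2 of 9 at 3-day and 3 of 10 at 7-day. Over all callable genes the shares called higher were 10.5%, 11.4% and 13.7%. In this list 1 gene was called lower at 3-day and 7-day (11.2% and 10.1% over all callable genes). *ETS1*, an oncogenic ETS factor, went from 2.53 CPM in Ctrl to 26.8, 68.6 and 83.9 CPM. *RUNX2*, a factor of bone formation, had no UMI in Ctrl and was at 0.591 CPM at 7-day, so it could be called only through its 7-day count. With Ctrl set at 3 counts, its 7-day level was 5.91-fold higher. The exact interval of its log2 ratio, which also covers the error of the 7-day count, began lower, at 2.08. The E-protein *TCF4* was lower, at 48.1, 26.2, 19.4 and 16.2 CPM. *MSX2*, a homeobox factor, had 0.80, 1.82, 0.653 and 0.433 CPM.

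Of 15 epithelial regulators, 5 of 14 callable genes were called lower at 1-day, 4 at 3-day and 2 at 7-day, against a background of 11.8%, 11.2% and 10.1% of genes. In the same list 2, 1 and 1 were called higher, against a background of 10.5%, 11.4% and 13.7% of genes. The epithelial ETS factor *ELF3* went from 269 CPM in Ctrl to 48.0, 28.7 and 52.8 CPM and the endoderm factor *FOXA2* from 79.7 to 20.03, 14.7 and 17.1 CPM. *FOXA1* was higher at 7-day (35.3 against 16.0 CPM) and *KLF4* was highest at 1-day (32.5 against 8.13 CPM in Ctrl). Factors of the SNAIL and ZEB families are known to repress epithelial genes in part. Of 18 such genes, 4 of 17 callable genes were called lower at 1-day, 4 at 3-day and 3 at 7-day. In the same order, 4, 2 and 1 were called higher. Over all callable genes the shares were 11.8%, 11.2% and 10.1% lower and 10.5%, 11.4% and 13.7% higher. *MAL2*, an apical sorting protein, was at 704, 176, 136 and 259 CPM and the tight junction gene *TJP3* at 13.1, 3.52, 2.24 and 6.22 CPM, while the keratin *KRT7* was at 346, 942, 1080 and 881 CPM and *TJP1* at 56.4, 114, 116 and 105 CPM. *CDH1*, given here after its values were seen, was at 75.7, 119, 94.6 and 81.7 CPM. It was above its Ctrl level in each treated library and was not called at any time point. Across thinned cells its r with *SNAI2* was 0.0673, 0.0234, 0.0989 and 0.0792. The compared epithelial genes and regulators went both ways by mean r with *SNAI2*, from *TP63* (0.171, rank 14 of 7965) to *KRT8* (-0.151, rank 7962). Of others looked up afterwards, *MAL2* (-0.129), *ELF3* (-0.128), *KRT18* (-0.124) and *EPCAM* (-0.0901) were negative. *KLF4* (0.0575), *KRT7* (0.0453) and *DSP* (0.0384) were positive.

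Of 18 mesenchymal genes, 5 of 10 callable genes were called higher at 1-day, 7 of 9 at 3-day and 9 of 10 at 7-day. The callable genes differed between time points. Where callable, *MMP2*, *SPARC* (1 UMI in Ctrl), *ACTA2* (7 UMIs) and *CDH2* (9 UMIs) were so only through their treated counts. *SPARC*, *ACTA2* and *CDH2* are named here for that reason, and like *MMP2* each was called higher at 7-day. Over all callable genes the shares called higher were 10.5%, 11.4% and 13.7%. Of the mesenchymal genes 1 was called lower at 1-day and 3-day (11.8% and 11.2% over all callable genes). The gelatinase *MMP2* had no UMI in Ctrl and was at 7.80, 72.1 and 95.9 CPM in the treated libraries. With Ctrl set at 3 counts, its 7-day level was 958-fold higher. The exact interval of its log2 ratio, which also covers the error of the 7-day count, began lower, at 9.61. The fibronectin receptor subunit *ITGA5* went from 1.33 to 4.22, 12.8 and 34.7 CPM. *COL1A1* was highest at 1-day (4.10, 141, 63.1 and 14.8 CPM), and *S100A4* stayed below its Ctrl level of 2.90 CPM. *VIM*, the intermediate filament gene of mesenchymal cells, had only 0, 8, 5 and 6 UMIs and is named here after its values were seen.

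The TGF-β1 response list, an index of the treatment, had 10 of 14 genes called higher at 1-day and 3-day and 9 at 7-day, with 2 lower each time. Over all callable genes, 10.5%, 11.4% and 13.7% were called higher and 11.8%, 11.2% and 10.1% lower. *LTBP2* was highest at 7-day (0.533, 11.4, 15.8 and 16.8 CPM), while *ID1* (270, 108, 62.9 and 73.2 CPM) and *ID2* (144, 136, 65.7 and 39.1 CPM) were lower. Among 20 corepressors and regulators of SNAI1 and SNAI2 stability, 1, 1 and 2 of 19 callable genes were called higher and 1, 0 and 0 lower. Each of these shares was below that over all callable genes. The Hippo kinase *LATS2* was at 8.40, 21.2, 31.4 and 31.4 CPM and *PPP2R3A* at 2.67, 4.67, 4.42 and 6.11 CPM, and *MDM2* and *SIN3A* were not called at any time point. None of the 4 callable genes of 6 in the LIN28 and let-7 axis of *HMGA2* was called, with the *HMGA2* target *IGF2BP2* (30.6, 42.9, 49.9 and 57.9 CPM) and the let-7 target *IGF2BP1* (2.73, 3.55, 3.70 and 3.90 CPM) being highest at 7-day. *IGF2BP3* and *DICER1* differed from Ctrl by log2 ratios of 0.07 and -0.07 at 7-day.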

How the data were processed

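The authors aligned reads of the 3′ scRNA-seq libraries to GRCh38 with Cell Ranger 2.0.1, per the labels, and deposited raw counts of UMIs per gene and cell. Of 10710 listed cells, the 3170 that come first in their barcode lists (941 for Ctrl, and 945, 712 and 572 after 1, 3 and 7 days) were analysed here. Cells with more than 200 genes and at most 20% mitochondrial UMIs were retained (3144 cells), and 40 cells marked as doublets by Scrublet (1.27%, scanpy 1.11.5) stayed in except in one alternative. Levels are CPM of summed UMIs with exact Poisson 95% intervals, log2 ratios have exact conditional intervals, and shares of cells have exact binomial intervals, all covering counting error only. No p-value was computed, since each group had 1 library. Floors for a count of 0 used 3 counts. For shares and correlations, each cell was thinned to 18000 UMIs (89, 37, 28 and 20 shallower cells were left out of Ctrl, 1-day, 3-day and 7-day) and values were scaled to 10000 UMIs per cell and, after adding 1, converted to natural logs. Genes compared with *SNAI2* and *SOX4* were detected in at least 10% of thinned cells of every library. The text names the 10 factors, the 2 highest and 2 lowest genes of each list by 7-day ratio, and the 5 most and 3 least alike genes, apart from items that are not reported here. Factors and lists were chosen with earlier results of these data known. Positions are those of GENCODE release 44. Steps were tested on simulated data in Python 3.11.15. Alternatives were another scaling, means over cells, thinning, a 10% mitochondrial limit, doublets left out, cells without *MKI67* and *TOP2A*, no filter, rank and partial correlations and parts of the cells, as well as cells with shared barcodes left out, which was added after seeing the data.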

Additional observations from a re-analysis of the deposited data

Results flagged for a closer look

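*HMGA1* was the factor whose direction against Ctrl differed between time points, among those with counting intervals that left out 0 (*TWIST1*, with 1 to 9 UMIs per library, also changed sign, with intervals that held 0). Its log2 ratio was -0.4825 at 1-day, 0.2898 at 3-day and 0.6661 at 7-day, with counting intervals that left out 0 each time. The difference was not tested, because each time point had 1 library. Over the alternatives the ratio ran from -0.50 to -0.41 at 1-day, from 0.11 to 0.29 at 3-day and from 0.48 to 0.67 at 7-day. The summed cycling list was lowest in the 1-day library (521 CPM against 1511 CPM in Ctrl), and in cells with no *MKI67* and *TOP2A* UMI the *HMGA1* level was 1177 CPM (Ctrl) and 855 CPM (1-day).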

How the results depend on the processing

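No paired analysis was possible because each time point has 1 library. Of 56 values for the called factors and for the correlation of *SNAI2* and *SOX4* under the alternatives, 46 stayed within a set tolerance and 10 moved, and none changed direction. The tolerance passed a count of 3 called factors in place of 4 at 1-day, so these 46 are not all unchanged. In cells with no *MKI67* and *TOP2A* UMI, 3 factors were called at 1-day in place of 4 and 3 at 7-day in place of 6. The shares over all genes there were 1195 of 13983 and 1773 of 12434 called higher. In these cells r was 0.0213 in Ctrl and 0.0272 at 7-day. With depth, mitochondrial share and the cycling list held fixed, r was 0.0704 at 3-day and 0.113 at 7-day, and without thinning it was 0.265 at 7-day. When cells were divided into an earlier and a later set by barcode order, r was 0.0375 and 0.176 in Ctrl and 0.286 and 0.128 at 7-day. Of 173 log2 ratios of single factors under the alternatives, 26 moved beyond their counting interval, and none that excluded 0 changed direction. After thinning, 4 of 6 callable factors were called at 3-day (1596 of 14432 genes were called higher) and 5 of 7 at 7-day (1897 of 14397 genes), as *ZEB1* had too few UMIs. Another scaling moved ratios by 0.08 at 1-day, -0.03 at 3-day and -0.09 at 7-day (log2). *SNAI1*, *ZEB1*, *ZEB2*, *TWIST1* and *PRRX1* are limited by their counts, and without a second library per time point the spread between cultures is unknown.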
